A study of Homo sapiens with 6 samples.

Results

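The peroxisome proliferator-activated receptors (PPARs) and a set of lipid genes that they are known to control were read in BxPC-3 tumors from vehicle-treated mice and from mice given deferasirox (DFX), an oral iron chelator. Members were all non-control spots of the array whose gene name was PPARA, PPARD, PPARG, PPARGC1A, CPT1A, PDK4, PLIN2, ACADM or ANGPTL4. These 9 genes had 14 probes, in 32 spots, among 50599 non-control probes. PPARA, PPARD, PPARG and PLIN2 had more than 1 probe, and every probe was kept.

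BxPC-3 is a human pancreatic adenocarcinoma cell line. Its cells were injected under the skin of female BALB/c (nu/nu) mice aged 8 to 10 weeks, which lack T cells but keep other host cells, so a tumor held human cancer cells together with mouse stroma. The 3 control mice received the vehicle and the 3 treated mice received DFX suspended in saline at 200 mg/kg by gavage, every second day and for 21 days. Each tumor was hybridized to its own one-color human 60-mer array.

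PPARs are nuclear receptors that bind fatty acids and their derivatives. Each pairs with a retinoid X receptor (RXR) on DNA that holds a direct repeat of the half-site AGGTCA, and coactivators such as PPARGC1A join the pair. PPARA is best known for fatty acid oxidation in liver, PPARD is found in most tissues and PPARG drives fat cell formation. In epithelium, the targets take up, store and burn fatty acids.

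Values are log2 intensities after background subtraction by the scanner software and quantile normalization between arrays. A probe was tested when it differed from its local background at a detection p-value under 0.05 on all 6 arrays. The scanner software also flags spots well above background, a stricter call. A level of 1 probe cannot be set against that of another probe, since 60-mers differ in how brightly they bind. The arrays had 50.3% to 56.5% of probes well above background and correlated at 0.980 to 0.990 with each other, and no spot was saturated. All arrays lay on 1 slide, the vehicle group filling row 1 and the DFX group row 2, so that row and treatment cannot be told apart.

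PPARG was read by a pair of probes that gave different results, and PLIN2 by 3 probes that disagreed, so the PPARG pair and the PLIN2 probe with the largest difference are shown, all in lower case. Both PPARG probes are open in 1 reading frame. The first lies in the part of the transcript that codes for the ligand-binding domain and the second in the part for the DNA-binding domain. On hg19 they cover chr3:12458499-12458558 and chr3:12434128-12434187, both on the plus strand, with 24311 bases between them. The PLIN2 probe covers chr9:19116370-19116429 on the minus strand.
PPARG, ligand-binding domain probe: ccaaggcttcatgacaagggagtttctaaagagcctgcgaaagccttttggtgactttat
PPARG, DNA-binding domain probe: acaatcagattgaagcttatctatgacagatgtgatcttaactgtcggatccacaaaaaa
PLIN2 probe: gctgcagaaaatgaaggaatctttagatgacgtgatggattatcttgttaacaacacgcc

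The 250 bases before each start site in the RefSeq table of GRCh38.p14 were searched for 3 motifs on both strands. All 9 genes matched by symbol, with 16 start sites. AGGTCA was present in 3 windows, all of them of PPARG, and in 12.1% of the 35116 windows of all genes. A tandem of AGGTCA with 1 base between, the textbook PPAR element, was present in none of the 16 and in 0.0171% of all windows. ACGTG, the core to which hypoxia-inducible factors bind, was present in 4 windows, 1 each of PPARG, PPARGC1A, PLIN2 and ANGPTL4, and in 18.5% of all windows. The windows of ANGPTL4 and PLIN2 are shown because these were the lipid targets with the largest differences between the groups. Capitals mark ACGTG or its reverse complement, which overlap at 68 and 69 bases before the PLIN2 start. The ANGPTL4 window is chr19:8363905-8364154 on the plus strand and the PLIN2 window is chr9:19127493-19127742 on the minus strand. A match describes these letters and not a binding site.
ANGPTL4 promoter: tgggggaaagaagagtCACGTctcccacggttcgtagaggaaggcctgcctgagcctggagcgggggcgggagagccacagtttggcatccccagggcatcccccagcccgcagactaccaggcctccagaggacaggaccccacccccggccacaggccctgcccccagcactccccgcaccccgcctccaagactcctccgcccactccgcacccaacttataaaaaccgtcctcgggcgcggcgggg
PLIN2 promoter: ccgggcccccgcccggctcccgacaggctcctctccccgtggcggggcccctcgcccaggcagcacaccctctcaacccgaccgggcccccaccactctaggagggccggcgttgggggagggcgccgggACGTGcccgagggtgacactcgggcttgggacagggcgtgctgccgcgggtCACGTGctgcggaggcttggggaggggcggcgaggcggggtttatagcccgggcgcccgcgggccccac

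Across the 9 genes, 2 probes differed between DFX-treated and control tumors at an unadjusted limma p under 0.05. They were the DNA-binding domain probe of PPARG and the probe of ANGPTL4, and both were higher in DFX-treated tumors. These 2 were 15.4% of the 13 probes tested, and 8.41% of all 31807 tested probes passed the same threshold, and 3.46% of the 31807 passed on the higher side. Once p-values were adjusted over the whole array (Benjamini-Hochberg), no probe of the 9 genes passed, and their adjusted p-values in limma ran from 0.514 to 0.967. No other probe of the array passed either, the lowest adjusted p being 0.0675. The groups did not overlap for 3 probes, the same pair and 1 probe of PPARD, or 23.1% of those tested against 15.5% of all tested probes. By the Kruskal-Wallis H test the same 3 probes passed unadjusted. With 3 tumors per group that test passes only where the groups do not overlap, so it adds nothing to this count. The 13 probes had a median log2 fold change of 0.16, with 10 higher and 3 lower in DFX-treated tumors, beside a median of -0.02 over all tested probes.

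**Figure D1:**
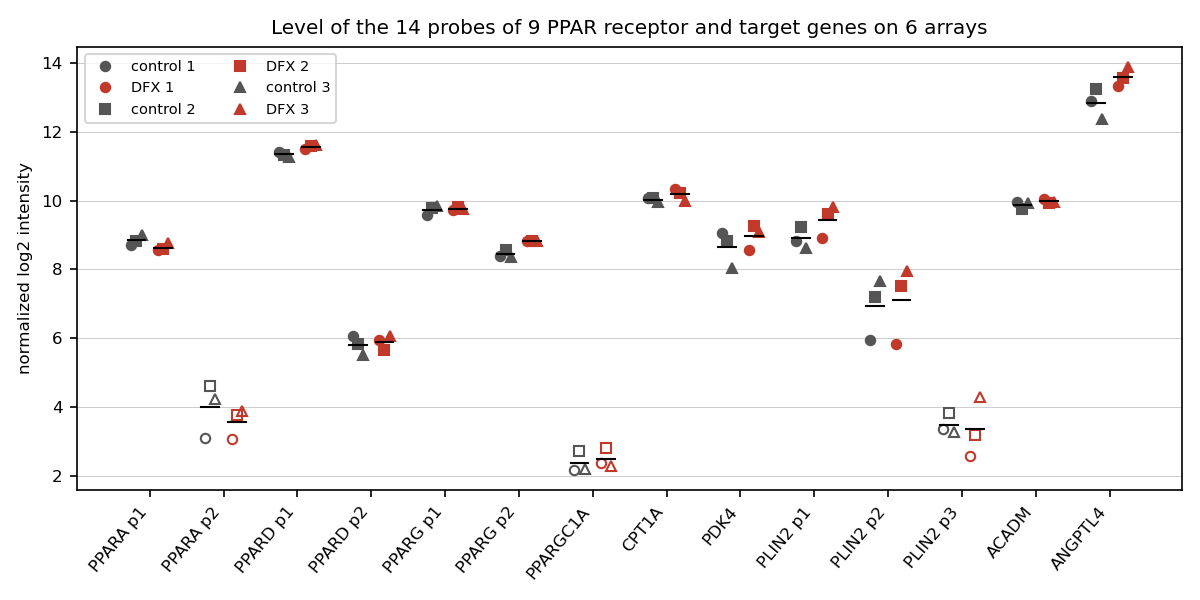
Normalized log2 intensity (y axis) of the 14 probes (x axis, p1 to p3 numbering the probes of a gene) in each of the 3 control (gray) and 3 DFX-treated (red) tumors, with the group mean as a line. Open symbols mark a group in which the probe was not well above background on all 3 arrays, and the groups of PPARG p2, PPARD p1 and ANGPTL4 do not overlap.

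Among the receptors, PPARG gave the clearest difference, and only by its DNA-binding domain probe. This probe, printed in 1 spot on each array, read 8.40, 8.55 and 8.36 in control tumors and 8.82, 8.82 and 8.83 in DFX-treated tumors. All DFX-treated tumors lay above all control tumors. The SD of the DFX-treated tumors, 0.007, was below the 0.034 to 0.059 between spots of the other PPARG probe on 1 array. Their closeness to each other therefore has little weight. The means were 8.44 ± 0.10 and 8.83 ± 0.01 (SD, n = 3 each), a log2 fold change of 0.39 with a standard error of 0.10 and a 95% interval of 0.14 to 0.64. It passed the unadjusted threshold, and its adjusted p in limma was 0.514.

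The ligand-binding domain probe of PPARG, printed in 10 spots on each array, read 9.58, 9.80 and 9.83 in control tumors and 9.73, 9.81 and 9.74 in DFX-treated tumors. These values overlapped throughout, and the log2 fold change was 0.02 with a 95% interval of -0.25 to 0.30. The 10 spots of 1 array differed by an SD of 0.034 to 0.059, less than the tumors did in the control group (SD 0.14). Which PPARG transcripts each probe reads was not analysed here.

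Within each array, the DNA-binding domain probe minus the ligand-binding domain probe was -1.18, -1.24 and -1.47 in control tumors. In DFX-treated tumors it was -0.90, -0.98 and -0.91. The difference was thus smaller in every DFX-treated tumor, by 0.37 on the log2 scale on average. This is a description, since the probes were set side by side for their different results. The DNA-binding domain probe fell short of the unadjusted threshold under 2 alternatives, median scaling (log2 fold change 0.28) and the slide column as a block (0.45). The slide column value rests on the 2 columns that held both groups, where the probe was higher in the DFX-treated tumor by 0.42 and 0.47.

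**Figure D2:**
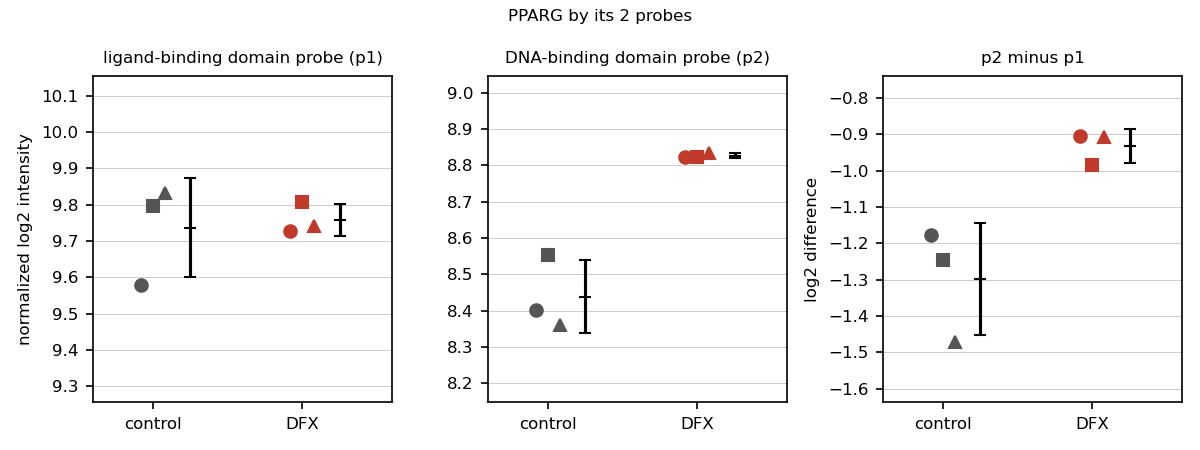
PPARG by its ligand-binding domain probe (left), its DNA-binding domain probe (middle) and their log2 difference on each array (right), for 3 control (gray) and 3 DFX-treated (red) tumors, with mean and SD as bars. The y axes are log2 intensities or log2 differences of equal length, and only the middle and right panels separate the groups.

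PPARD, the receptor found in most tissues, had 1 probe that separated the groups without passing the test. That probe (hg19 chr6:35395809-35395868, plus strand) read 11.42, 11.33 and 11.27 in control tumors and 11.49, 11.59 and 11.62 in DFX-treated tumors. The lowest DFX-treated tumor was above the highest control tumor by less than the SD within either group. Its log2 fold change was 0.23 with a standard error of 0.10 and an adjusted p of 0.620 in limma. The second PPARD probe read 6.06, 5.85 and 5.52 in control tumors and 5.94, 5.65 and 6.05 in DFX-treated tumors. Those ranges overlapped, with a log2 fold change of 0.07 and a 95% interval of -0.38 to 0.52.

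PPARA, the receptor best known for fatty acid oxidation, had the only negative values among the receptors. Its well measured probe (hg19 chr22:46639178-46639237, plus strand) read 8.72, 8.81 and 9.005 in control tumors and 8.57, 8.59 and 8.76 in DFX-treated tumors. The DFX-treated tumors were lower on average, but the highest of them exceeded the lowest control tumor. The log2 fold change was -0.21 with a 95% interval of -0.51 to 0.09, and it stayed negative under all 19 alternatives, between -0.32 and -0.13. The second PPARA probe was well above background in control tumor 2 and in no other tumor, so its log2 fold change of -0.42, with a standard error of 0.43, has little weight.

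PPARGC1A, the coactivator known for mitochondrial biogenesis, was not well above background on any array and was not tested. Its probe (hg19 chr4:23793937-23793996, minus strand) read 2.19, 2.73 and 2.20 in control tumors and 2.36, 2.81 and 2.28 in DFX-treated tumors. Its relatives were measured. PPARGC1B had log2 fold changes of 0.17 and 0.19 by its 2 probes, neither past the unadjusted threshold.

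Among the lipid targets, ANGPTL4, a secreted inhibitor of lipoprotein lipase, had the largest difference of the 9 genes. Its probe (hg19 chr19:8439197-8439256, plus strand) read 12.88, 13.25 and 12.38 in control tumors and 13.32, 13.57 and 13.88 in DFX-treated tumors. The groups did not overlap, although DFX-treated tumor 1 exceeded control tumor 2 by little and control tumor 3 was the lowest of all. The means were 12.84 ± 0.44 and 13.59 ± 0.28 (SD, n = 3 each). The fold change was 1.68, or 0.75 on the log2 scale with a standard error of 0.26 and a 95% interval of 0.11 to 1.39. It passed the unadjusted threshold, and its adjusted p in limma was 0.562.

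The ANGPTL4 difference stayed positive under all 19 alternatives, between 0.50 and 1.096, and fell short of the unadjusted threshold under 7 of them. Leaving out 1 tumor gave 0.77 without control tumor 1, 0.52 without control tumor 3, 0.76 without DFX-treated tumor 2 and 0.61 without DFX-treated tumor 3, all short of it. The other three were the replicate number as a block (0.75), array quality weights (0.50) and a linear model without moderation of the variance (0.75). With the slide column as a block the value was 1.096 and passed. That value rests on the 2 columns that held both groups, where the DFX-treated tumor was higher by 0.69 and 1.50.

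PLIN2, the coat protein of lipid droplets in most cells, had its best measured probe at 8.84, 9.22 and 8.63 in control tumors and 8.90, 9.61 and 9.80 in DFX-treated tumors. DFX-treated tumor 1 lay inside the control range and the other two above it. The log2 fold change was 0.54 with a standard error of 0.28 and an adjusted p of 0.645 in limma. It passed the unadjusted threshold without DFX-treated tumor 1, at 0.81, and with the slide column as a block, at 0.97. The order of the tumors within each group was that of ANGPTL4, with control tumor 3 lowest and control tumor 2 highest, and with DFX-treated tumor 1 lowest and DFX-treated tumor 3 highest.

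A second PLIN2 probe varied more within the groups than between them. It read 5.95, 7.20 and 7.66 in control tumors and 5.82, 7.52 and 7.96 in DFX-treated tumors, a log2 fold change of 0.17 with a standard error of 0.68. The probes of this gene therefore disagreed about which control tumor was lowest. The third probe named PLIN2 was not well above background on any array, and its log2 fold change of -0.14 had a standard error of 0.44.

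PDK4, the kinase that turns off pyruvate dehydrogenase when fat is burned, overlapped between the groups. Its probe (hg19 chr7:95213307-95213366, minus strand) read 9.06, 8.84 and 8.03 in control tumors and 8.58, 9.25 and 9.09 in DFX-treated tumors, with control tumor 3 again the lowest. Its log2 fold change of 0.33 had a 95% interval of -0.44 to 1.11. Without control tumor 3 it was 0.03. The other kinases of this family had log2 fold changes of 0.21 for PDK1, 0.10 for the brighter PDK2 probe and -0.27 for PDK3, none past the unadjusted threshold.

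CPT1A, which commits long-chain fatty acids to import into mitochondria, was read by 10 spots and had small differences. Its probe (hg19 chr11:68527063-68527122, minus strand) read 10.06, 10.07 and 9.95 in control tumors and 10.33, 10.23 and 10.00 in DFX-treated tumors. DFX-treated tumor 3 fell within the control range and the other two lay above it. The log2 fold change was 0.16 with a 95% interval of -0.15 to 0.46.

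ACADM, the medium-chain acyl-CoA dehydrogenase of beta-oxidation, read 9.95, 9.75 and 9.92 in control tumors and 10.04, 9.94 and 9.97 in DFX-treated tumors. Its 60-base probe spans 1381 bases of hg19 (chr1:76227040-76228420, plus strand), so it crosses an intron. The groups overlapped, and the log2 fold change was 0.11 with a 95% interval of -0.15 to 0.37. For CPT1A and ACADM these intervals leave out a difference of 0.50 or more on the log2 scale, and for PDK4 and PLIN2 they do not.

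**Figure D3:**
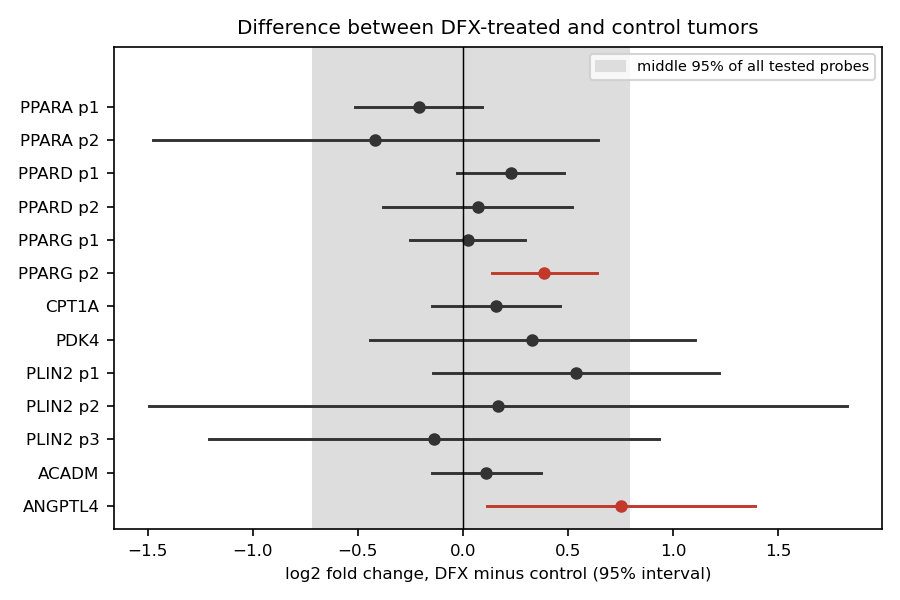
Log2 fold change, DFX minus control (x axis), of the 13 tested probes (y axis) with its 95% interval from limma, in red where the unadjusted p was under 0.05. The gray band is the middle 95% of all tested probes, from -0.72 to 0.79, and every point lies within it.

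The neighbors of these genes in the pathway were counted from 9 lists of 142 genes, of which 123 besides the members were tested. A probe of 8 genes was higher and a probe of 9 other genes lower in DFX-treated tumors at an unadjusted limma p under 0.05, which is 6.50% higher and 7.32% lower. Of all 22718 tested genes, 4.45% were higher and 6.4% lower by the same rule. The pathway genes had a median log2 fold change of 0.07, beside -0.01 over all genes. The adjusted p-values of these 17 genes in limma were 0.504 or more. By the probe with the highest signal of each gene alone, a rule added after the data had been seen, 8 genes were higher and 3 lower, or 11 in place of 17. By that rule 3.68% of all tested genes were higher and 4.29% lower. For 8 of the 17 genes another probe was tested, and none of these 9 other probes passed. Each is given beside its gene, and 4 of them had the opposite sign. Of the 17, 2 genes, FABP1 and CREB3L3, stayed past the threshold under every alternative in which they had a value. Both lacked a value under the filter for probes well above background on all arrays. FABP1 met that call in 1 control tumor and CREB3L3 in 2.

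Of 16 tested genes of uptake, binding and activation, 3 were higher and none lower, with a median of 0.09. FABP1, the fatty acid binding protein of liver and intestine, read 3.16, 4.45 and 2.45 in control tumors and 7.82, 8.50 and 6.64 in DFX-treated tumors. It was well above background in 1 control tumor and in all DFX-treated tumors, and its log2 fold change was 4.30 with a standard error of 0.66. Its size moved with the settings and was 1.70 by the raw mean signal and 3.85 to 4.85 with 1 tumor left out. A second FABP1 probe was not well above background on any array and was not tested. It read 2.03, 2.07 and 2.07 in control tumors and 2.04, 4.55 and 2.05 in DFX-treated tumors. SLC27A1, a fatty acid transporter, had 0.46, or 0.29 without control tumor 3, and 0.12 by a second probe near background. ACSL5, which joins fatty acids to coenzyme A, had 0.28, or 0.17 under median scaling.

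Of 22 tested genes of mitochondrial beta-oxidation, a probe of 4 was lower and none higher past the threshold. ETFA (-0.40), which passes electrons from the dehydrogenases to the respiratory chain, and DECR1 (-0.31), needed for unsaturated fatty acids, had 1 tested probe each. ACADSB, which dehydrogenates short branched acyl-CoA, had -0.43 by 1 probe and 0.16 by the other. CPT1C, the brain form of CPT1, had -0.42 and -0.15. The list as a whole did not lie lower, since 15 of its 22 genes had a positive value and the median was 0.12. The muscle form CPT1B had 0.00. Of 16 tested peroxisomal genes, a probe of 2 was lower, and the median was 0.03. For SCP2, a thiolase and lipid transfer protein, a dim probe was at least 1.71-fold lower, since it was not well above background in DFX-treated tumors, while the probe that was well above background on all arrays had -0.06. CROT, which makes acylcarnitines, had -0.33 by 1 probe and -0.35, short of the threshold, by the other. None of the 6 genes named here as lower passed with the slide column as a block, a fit that rests on only 2 columns.

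Of 9 tested genes of ketone body metabolism and omega-oxidation, 1 was higher and none lower, with a median of -0.03. BDH1, which interconverts the ketone bodies, read 9.53, 9.60 and 9.47 in control tumors and 10.06, 9.82 and 9.83 in DFX-treated tumors. The groups did not overlap, and the log2 fold change was 0.37 with a standard error of 0.12.

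Of 15 tested genes of the lipid droplet coat and lipolysis, 13 had a positive value, the median was 0.22, and 2 were higher past the threshold. PLIN5, the coat protein that ties droplets to mitochondria, read 4.98, 5.24 and 4.74 in control tumors and 5.85, 5.46 and 5.60 in DFX-treated tumors, a log2 fold change of 0.65. CIDEC, a droplet fusion protein, had 0.48 by 1 probe and -0.09 by the other. Of the other perilipins, PLIN3 had 0.22 and PLIN4 0.23, neither past the threshold. PLIN1, the perilipin of fat cells, was well above background in 1 DFX-treated tumor and no control tumor.

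No gene passed among 13 of fuel selection and acyl-CoA handling (median 0.10), nor among 6 tested genes of the list of angiopoietin-like proteins and lipoprotein lipase (median -0.16). Of these 6, 2 were angiopoietin-like genes, ANGPTL2 (-0.79) and ANGPTL6 (0.16), and the others were lipases and their partners. LPL, the lipase that ANGPTL4 inhibits, was not tested. Of 12 other PPAR-responsive genes, 2 were higher, and the median was 0.30. CREB3L3, a liver and intestine transcription factor, read 4.20, 4.11 and 4.16 in control tumors and 5.56, 6.14 and 4.65 in DFX-treated tumors, a log2 fold change of 1.30. VNN1, a pantetheinase, was at least 1.92-fold higher, with no control tumor well above background.

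Of 14 tested partners and cofactors of the receptors, a probe of 3 was lower and none higher, with a median of 0.04. MED1, a Mediator subunit that contacts nuclear receptors, had -0.49 by 1 probe, or -0.33 without control tumor 2, and 0.10 by the other. The coactivator NCOA3 had -0.28 by its only tested probe. The corepressor NCOR1 had -0.25 by 1 probe and -0.01 and 0.07 by 2 others. The NCOR1 probe past the threshold read 7.76, 7.73 and 7.68 in control tumors and 7.45, 7.47 and 7.49 in DFX-treated tumors, without overlap. RXRA had 0.14 and RXRB -0.15, neither past the threshold, and RXRG was not tested.

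Of the 17 genes, 5 stayed past the threshold whichever tumor was left out, namely FABP1, CREB3L3, PLIN5, CIDEC and the dim probe of SCP2. By tumor, 10 stayed without control tumor 1, 12 without control tumor 2 and 10 without control tumor 3. Without DFX-treated tumor 1, 2 or 3 they were 8, 8 and 10. With the replicate number as a block 8 stayed. With the slide column as a block, a fit that rests on only 2 columns, 3 stayed, all of them higher. By the raw mean signal, with no background subtracted, or with normexp the dim genes differed less, down to 0.35 for CREB3L3, 0.23 for VNN1, 0.20 for PLIN5, -0.16 for SCP2 and CROT, -0.22 for MED1 and -0.24 for ACADSB and CPT1C.

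**Figure D4:**
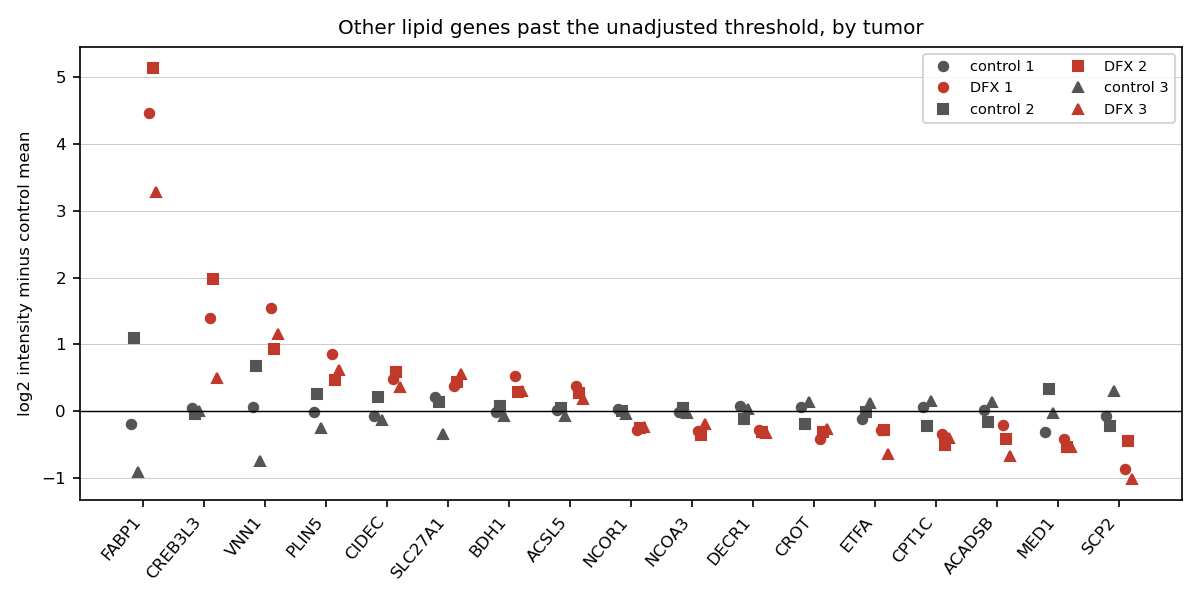
Log2 intensity minus the control mean (y axis) of the 17 pathway genes with a probe past the unadjusted threshold (x axis), for each of the 3 control (gray) and 3 DFX-treated (red) tumors. FABP1 and VNN1 show the widest spread between control tumors, with control tumor 3 the lowest in both. Only 1 control tumor for FABP1 and none for VNN1 was well above background.

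Marker lists were read beside these values, since bulk RNA cannot tell fewer cells of a type from less RNA per cell. Of 10 pancreatic ductal epithelial markers, all were tested and 4 were higher in DFX-treated tumors, namely KRT8 (0.48, with 0.24 and -0.12 by its other probes), EPCAM (0.43), S100P (0.33) and KRT18 (0.27, with 0.15 by its other probe, and 0.15 under median scaling). The 6 not past the threshold had 0.83 (LCN2), 0.71 (the brighter MUC1 probe), 0.22 (CEACAM6), 0.06 (CDH1), 0.02 (KRT19) and -0.17 (KRT7). The median of the list was 0.30. The summed linear intensity of the list was 757548 to 799245 in control and 822200 to 854675 in DFX-treated tumors. Bright probes such as that of KRT19 weigh heavily in this sum.

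Several of the higher pathway genes, among them FABP1 and CREB3L3, are also expressed by intestinal epithelium. Of 12 tested intestinal epithelial markers, 9 were higher and none lower, with a median of 1.33. Their summed linear intensity was 1098 to 4402 in control and 4916 to 7647 in DFX-treated tumors. Bright probes such as that of LGALS4 (10.74, 10.82 and 7.37 in control tumors) weigh heavily in this sum. Control tumor 3 had the lowest sum, and DFX-treated tumor 3 the lowest of its group. FABP1 had the same lowest tumors, but only 1 of its control tumors was well above background. Its order among control tumors therefore has little weight. KRT20, a keratin of that epithelium, read 6.94, 7.68 and 5.27 in control tumors and 9.40, 9.41 and 8.45 in DFX-treated tumors. The part of these genes in the pathway counts was not tested.

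PPARG, PLIN1, CIDEC and ANGPTL4 are also known from fat cells. Of 8 tested adipocyte markers, 3 were higher, namely PCK1 (at least 3.71-fold), CFD (0.54) and CIDEC. The 5 not past the threshold had 1.30 (PLIN1), 0.12 (LIPE), 0.06 (RETN), -0.13 (AQP7) and -0.21 (GPD1). The summed linear intensity of the list was 9386 to 13571 in control and 13930 to 16010 in DFX-treated tumors. Most of that sum was CFD, the brightest of the list, so it does not describe the list as a whole. For the defining genes ADIPOQ, LEP and FABP4 no array gave a spot well above background. The probes are human, and how far they read mouse transcripts was not tested. The fat, muscle, leukocyte, fibroblast and endothelial lists therefore do not show how much mouse tissue a tumor held. No marker passed among 7 of skeletal muscle and 5 of macrophages and leukocytes. Of 8 fibroblast markers, LUM was higher (0.87, or 0.57 without DFX-treated tumor 3), and DCN (-1.30) and PDGFRA (-1.12) were lower. Of 5 endothelial markers, PECAM1 was higher (1.27 by the probe with the lowest p), while the list's median was -0.09.

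ANGPTL4 and PLIN2 are also known to respond to low oxygen. Of 15 tested hypoxia markers, 1 was higher and none lower, with a median of 0.18. This was PFKFB4, which read 8.75, 9.41 and 8.54 in control tumors and 9.37, 9.66 and 9.81 in DFX-treated tumors. The order of the tumors within each group was that of ANGPTL4 and of the best measured PLIN2 probe. Not every marker of the list had this order. ADM read 13.88, 14.53 and 13.99 in control tumors, and CA9 read 9.67, 9.75 and 9.64 in DFX-treated tumors. The summed linear intensity of the list was 259979 to 317456 in control and 260816 to 362726 in DFX-treated tumors, with DFX-treated tumor 3 the highest. Bright probes such as that of NDRG1 (16.39, 16.59 and 17.03 in DFX-treated tumors) weigh heavily in this sum, so it does not describe the list as a whole. The part of the list in the ANGPTL4 value was not tested.

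**Figure D5:**
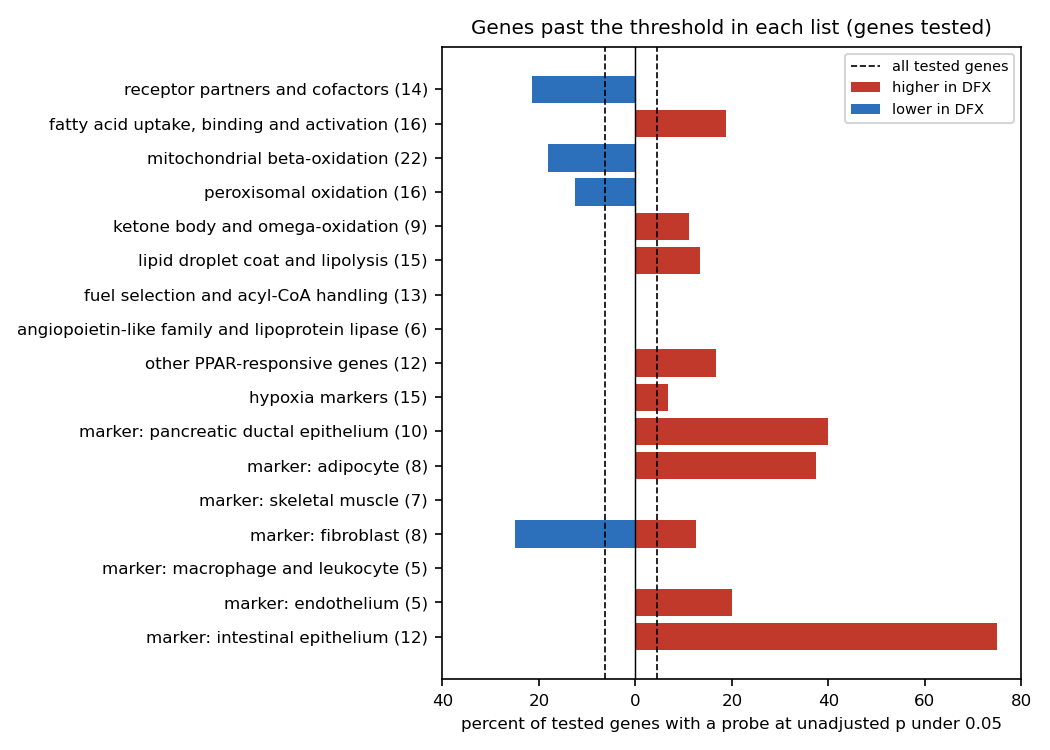
Percent of the tested genes of each list (y axis, genes tested in parentheses) with a probe at unadjusted p under 0.05, higher (red, right) or lower (blue, left) in DFX-treated tumors. Dashed lines give the share of all tested genes, 4.45% higher and 6.4% lower, and the intestinal epithelial markers stand farthest from it, with 9 of 12 higher.

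The genes whose pattern over the 6 arrays was most like that of ANGPTL4, among the 24363 probes that all arrays read well above background, were SBDS, TNS1 and ZNF2, with a Pearson correlation of 0.996, 0.994 and 0.994. For the DNA-binding domain probe of PPARG they were TRIB3, CBWD5 and HOXB13, with 0.997, 0.997 and 0.994. These correlations include the difference between the groups, all arrays share 1 slide, and with so many probes and 6 arrays values of this size are a ranking only.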

How the data were processed

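RNA of 3 control and 3 DFX-treated BxPC-3 tumors was measured, and groups were taken from the sample labels. The authors deposited 1 scanner file per array, with linear intensities (raw mean, background and processed signal), a p-value of each spot against its background, and flags. The file headers name Agilent Feature Extraction 10.7.1.1 and hg19, whereas the submitters' processing notes name version 9.5.1.1. The authors also deposited a table of normalized intensities, used as an alternative. Its median distance from linear processed signals quantile-normalized here was 0.185%. No authors' fold changes were used.

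As the methods describe, values were taken to log2 and quantile-normalized, here the processed signal of 58717 non-control spots. Outlier spot values (1398) were left out, and spots of a probe were averaged. Probes with a detection p-value (median over a probe's spots) under 0.05 on all 6 arrays were tested (31807 of 50599) in limma 3.58.1 (lmFit, eBayes; R 4.3.3). P-values were adjusted over all of them by Benjamini-Hochberg, and the prior had 2.04 degrees of freedom. Nothing states whether replicates shared a batch, so p-values measure the spread between these tumors. The number of arrays limits the precision. The procedure was tested on simulated data. A list gene was counted when any probe passed, its median used the brightest tested probe, and "at least" folds were set against the lowest signal well above background.

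The members, gene lists and thresholds were chosen with earlier results of these data known, and no list was tested as a set. The text names all members, up to 4 genes per list with the largest change among those past an unadjusted p of 0.05, the ANGPTL, PDK, PLIN, CPT1 and RXR families, and for ANGPTL4 and PPARG the 3 genes of most similar pattern. PPARGC1B, LPL and the markers named as undetected were chosen after their values were seen. ACOT2 and LYZ were not matched to a name on the array. Promoters are from RefSeq (GRCh38.p14). The exon or UTR of each probe was not analysed here. Alternatives covered scaling, background correction, signal, the authors' values, filters, outliers, the test, replicate and slide column blocks, array weights and each tumor left out. Counting a gene by its brightest probe was added after seeing the data. A gene of the lists is not reported here and enters none of their counts.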

Additional observations from a re-analysis of the deposited data

How the results depend on the processing

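The count of 2 member probes past the unadjusted threshold was 1 under median scaling, 1 with array quality weights and 1 with the replicate block, and 1 to 3 with 1 tumor left out. Deviations from the group means correlated at 0.0274, 0.0267 and 0.0158 between tumors with the same number. Tumors with different numbers were not compared in this way, so these values do not settle whether the numbers pair the tumors. Over all tested probes the count of 2675 was 4927 by the Kruskal-Wallis H test, the same number as had groups without overlap. With the slide column as a block, a fit that rests on the 2 columns that held both groups, it was 1418. Under median scaling the median log2 fold change over the array was -0.10, and values then are relative to that shift.

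Of the 13 member probes, 8 kept their direction under every alternative. The exceptions were the second PPARA probe (0.15 with the slide column block), the second PPARD probe (-0.073 to 0.20 with 1 tumor left out), the ligand-binding domain probe of PPARG (-0.091 under median scaling, -0.056 to 0.070 with 1 tumor left out), the second PLIN2 probe (-0.23 with array quality weights, -0.33 to 0.81 with 1 tumor left out) and the third PLIN2 probe (0.0036 by the raw mean signal, 0.42 with the slide column block, -0.60 to 0.25 with 1 tumor left out). The cause was not tested. All 32 named list probes kept their direction under the alternatives run for them. The first PPARD probe was past the unadjusted threshold by the raw mean signal, with normexp, with no filter on dim probes and with no moderation of the variance. Counting a pathway gene by its brightest probe gave 11 genes past the threshold in place of 17. Signal limits PPARGC1A, the second PPARA probe and the third PLIN2 probe.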
